A study of Mus musculus with 16 samples.

Results

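The 32 genes described here carry the synthesis of sterols and fatty acids and its control. They were taken from a list of pathway members and matched by symbol, and all 32 were found among the 55487 genes in the table and passed the filter on low values (1 CPM or more in 3 samples or more). They comprise 6 genes of the mevalonate steps, 11 of the squalene and sterol steps, 5 regulators and transporters, 4 genes of fatty acid synthesis, and 6 desaturases and elongases. RNA-Seq was performed on cerebral cortex of WT (wild-type) male C57Bl6 mice aged 2 months, which received i.p. LPS at 2 mg/kg, or PBS as control, on 2 consecutive days. LPS (lipopolysaccharide) is a bacterial cell wall component that activates innate immunity. Injections were given at zeitgeber time (ZT) 1, shortly after lights on, or at ZT13, shortly after lights off, and tissue was harvested on the day after the second injection. The groups were ZT1 PBS (n = 3), ZT1 LPS (n = 5), ZT13 PBS (n = 3) and ZT13 LPS (n = 5), each taken from the sample title. In 12 of the 16 samples the label field for treatment names the other treatment than the title does. Gfap, a gene that astrocytes raise in reactive gliosis, ranged from 111 to 123 CPM in the 6 mice with PBS in the title and from 572 to 1134 CPM in the 10 with LPS. With treatment taken from the field instead of the title, 0 of the 32 genes and 0 of all 18859 genes tested were called at either time.

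Values are CPM, reads on a gene per 1000000 reads on all genes. The samples held 20251840 to 29112758 such reads. Within a group the correlation between samples, across genes, was 0.987 to 0.994. Such values cannot show that no library was atypical. Counts over all genes between the times of day and for the interaction moved when single mice were left out, as given below. A gene "rose" or "fell" where the adjusted p of limma, Benjamini-Hochberg corrected over all 18859 genes tested, was under 0.05. Log2 differences are on the log2(CPM + 0.5) scale and SE is that of the fit, and percent changes are the fitted fold on this scale. Whole-tissue RNA cannot tell fewer cells of a type from less RNA per cell.

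Cholesterol barely crosses the blood-brain barrier, so the brain makes its own, largely in astrocytes and in oligodendrocytes, which need it for myelin. The pathway runs from acetyl-CoA through mevalonate to farnesyl pyrophosphate, then through squalene and lanosterol to cholesterol, while fatty acid synthesis starts from the same acetyl-CoA. Both are driven by the sterol regulatory element binding proteins SREBP-1 (Srebf1) and SREBP-2 (Srebf2), which INSIG proteins retain in the endoplasmic reticulum when sterols are plentiful and which, once released, act at sterol regulatory elements together with NF-Y at CCAAT boxes.

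Promoters were examined because many of these genes moved together with LPS. RefSeq promoter windows (GRCm38.p6) were used for 25 of the 32 genes (all but Fads1, Fdft1, Fdps, Scd1, Scd2, Sqle and Stard4), and the 250 bases before each start were searched on both strands. A gene was counted where any of its windows held the motif, and 4 of the 25 genes have more than 1 window. CCAAT was present in 21 of the 25 (84%), against 37.5% of 27025 genes with a window. Those genes were not filtered on expression, whereas the 25 all passed the filter on low values. CCAAT was also present in genes called at neither time with LPS (Mvk, Pmvk, Tm7sf2, Ebp, Insig2, Acss2 and Elovl5, but not Acly). The GC box GGGCGG was present in 20 (80%), against 35.4%, and the E-box CACGTG in 5 (20%), against 6.86%. The sterol regulatory element core CACNCCAC was found only in Hmgcs1 and Insig1 (8%), against 6.05% of all genes. Elements that differ from these letters or lie outside the windows were not counted. Sites of different motifs or strands may share bases, as do 2 CCAAT boxes of Fasn. A match describes these letters and is not evidence of binding. Windows are printed below for 3 genes that fell with LPS at both times (Hmgcs1, Mvd and Fasn) and for 2 that were called at neither time (Mvk and Insig2). These 5 windows lie upstream of the annotated GENCODE genes, and capitals mark CCAAT in either orientation and, in Hmgcs1, also the core CACCCCAC.
Hmgcs1, chr13:119690101-119690350, plus strand: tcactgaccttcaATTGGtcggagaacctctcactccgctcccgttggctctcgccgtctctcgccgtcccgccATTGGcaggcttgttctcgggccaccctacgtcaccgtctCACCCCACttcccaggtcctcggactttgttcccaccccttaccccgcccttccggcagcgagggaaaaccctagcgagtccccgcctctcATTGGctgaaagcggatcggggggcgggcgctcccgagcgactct
Mvd, chr8:122443423-122443672, minus strand: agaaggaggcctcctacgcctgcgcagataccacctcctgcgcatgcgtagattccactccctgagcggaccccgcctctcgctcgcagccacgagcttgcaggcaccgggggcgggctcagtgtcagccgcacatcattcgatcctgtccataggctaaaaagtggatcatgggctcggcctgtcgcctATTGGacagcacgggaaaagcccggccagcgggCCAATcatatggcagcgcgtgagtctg
Fasn, chr11:120824548-120824797, minus strand: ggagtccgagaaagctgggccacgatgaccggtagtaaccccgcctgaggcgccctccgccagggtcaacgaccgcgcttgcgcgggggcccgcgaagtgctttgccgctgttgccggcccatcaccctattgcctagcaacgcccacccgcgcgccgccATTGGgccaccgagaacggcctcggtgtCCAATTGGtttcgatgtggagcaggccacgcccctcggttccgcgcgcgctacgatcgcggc
Mvk, chr5:114444019-114444268, plus strand: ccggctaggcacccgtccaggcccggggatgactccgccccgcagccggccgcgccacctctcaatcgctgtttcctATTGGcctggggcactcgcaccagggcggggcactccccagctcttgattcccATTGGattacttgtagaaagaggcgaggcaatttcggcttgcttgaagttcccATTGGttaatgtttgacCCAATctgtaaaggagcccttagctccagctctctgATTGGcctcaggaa
Insig2, chr1:121332590-121332839, minus strand: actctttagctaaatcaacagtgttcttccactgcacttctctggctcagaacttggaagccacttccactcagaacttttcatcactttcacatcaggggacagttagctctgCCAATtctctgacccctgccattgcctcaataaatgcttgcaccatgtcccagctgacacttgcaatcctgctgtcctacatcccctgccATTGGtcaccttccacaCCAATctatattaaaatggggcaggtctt
Hmgcs1 and Fasn held 3 CCAAT boxes each, Mvd 2, Mvk 5 and Insig2 3 in these windows. RefSeq lists 3 windows for Insig2, and the other 2 held 0.

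In the ZT1 PBS mice the genes spanned a wide range of expression per length of exon. Scd2, a stearoyl-CoA desaturase, stood highest at 209 CPM per kb of exon, followed by Fasn at 47.3, Srebf2 at 44.6, Fads2 at 37.0, Hmgcs1 at 35.2 and Fads1 at 33.9 CPM per kb. Hsd17b7, an enzyme of sterol demethylation, was lowest at 2.82 CPM per kb. Length here is that of all annotated exons of a gene together, so this order depends on the annotation. By CPM alone Nsdhl was lowest, at a mean of 11.1 CPM, and Hsd17b7 was at 14.4 CPM. Mice of a group resembled each other, with a median coefficient of variation over the 32 genes of 3.98% in ZT1 PBS, 6.46% in ZT1 LPS, 3.72% in ZT13 PBS and 5.28% in ZT13 LPS.

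The comparison of LPS with PBS asked how the cortex had changed after injection. At ZT1, 17 of the 32 genes fell, 0 rose and 15 were not called. Of all genes tested, 5.15% fell and 11.1% rose. The falls ranged from 10.4% (Fads1) to 28.4% (Hmgcs1), and the median log2 difference of the 32 genes was −0.21, against 0.04 for all genes tested. For 18 genes every LPS mouse was below every PBS mouse, an arrangement seen in 8.41% of all genes tested. After Hmgcs1 the largest falls were those of Msmo1, Srebf2 and Fads2. Msmo1 encodes a sterol C4 demethylase, Srebf2 the main transcription factor of cholesterol synthesis, and Fads2 the delta-6 desaturase. Some ZT1 calls were lost whichever ZT1 PBS mouse was left out, which leaves fewer controls, while the estimates of those genes stayed negative. Without PBS mouse 1, 12 genes were called and Mvd, Idi1, Fdps, Sc5d and Dhcr7 were not. Without PBS mouse 3, 12 were called and Mvd, Idi1, Fdps, Sc5d and Elovl6 were not. Without PBS mouse 2, 15 were called and Dhcr7 and Fads1 were not. The share of all genes that fell went from 5.15% to 2.48%, 2.51% and 2.73% without PBS mouse 1, 3 and 2.

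At ZT13, 21 of the 32 genes fell, 2 rose (Srebf1 and Acaca) and 9 were not called. Of all genes tested, 9.40% fell and 19.2% rose. The falls ranged from 15.1% (Fasn) to 39.7% (Hmgcs1), and the median log2 difference was −0.34, against 0.05 for all genes. For 21 genes every LPS mouse was below every PBS mouse, as for 10.3% of all genes tested. With median-of-ratios scaling in place of library totals, which shifted the median of all genes to about zero, 18 of the 32 genes fell and 0 rose at ZT1, and 22 fell and 2 rose at ZT13. The same scaling changed the share of rises among all calls from 68.2% to 54.1% at ZT1 and from 67.2% to 51.0% at ZT13, with 7.51% and 14.6% of all genes then falling. Quantile normalization moved the median of all genes at ZT13 from 0.05 to −0.06. Then 21 of the 32 genes fell and 2 rose, while 16.5% of all genes fell and 13.5% rose. Calls at ZT13 depended little on single mice. Without PBS mouse 3 Hsd17b7 was not called, without LPS mouse 2 Ebp rose, and without LPS mouse 5 Elovl5 fell.

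The 17 genes that fell at ZT1 all fell at ZT13 too, in other mice with their own controls. They made up 100% of the falls at ZT1 and 81.0% of those at ZT13. The 4 genes called lower at ZT13 alone were Hsd17b7, Lss, Nsdhl and Stard4. The difference between their responses at the 2 times was not called for any of the 4 (adjusted p from limma of 0.51 to 0.73), so they were not shown to respond at ZT13 only.

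**Figure D1:**
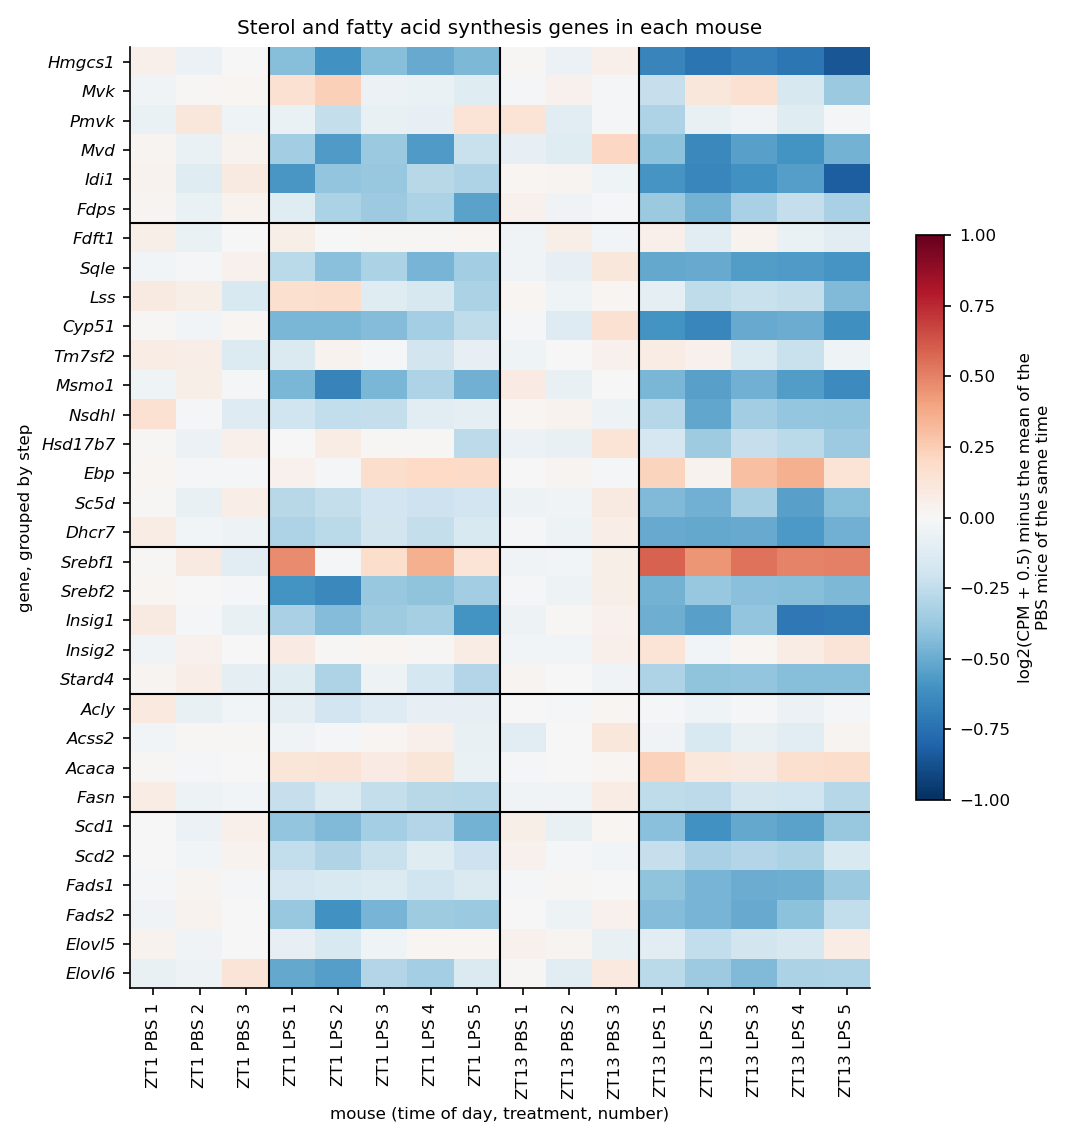
Each cell gives log2(CPM + 0.5) of 1 gene (rows, ordered by step, with lines between groups of steps) in 1 mouse (columns) minus the mean of the PBS mice injected at the same time, with blue below and red above that mean. The rows of 20 of the 32 genes are blue in all 10 LPS mice, and Srebf1 is red in 9 of the 10. The share of all genes tested that would be blue in all 10 was not counted.

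**Figure D2:**
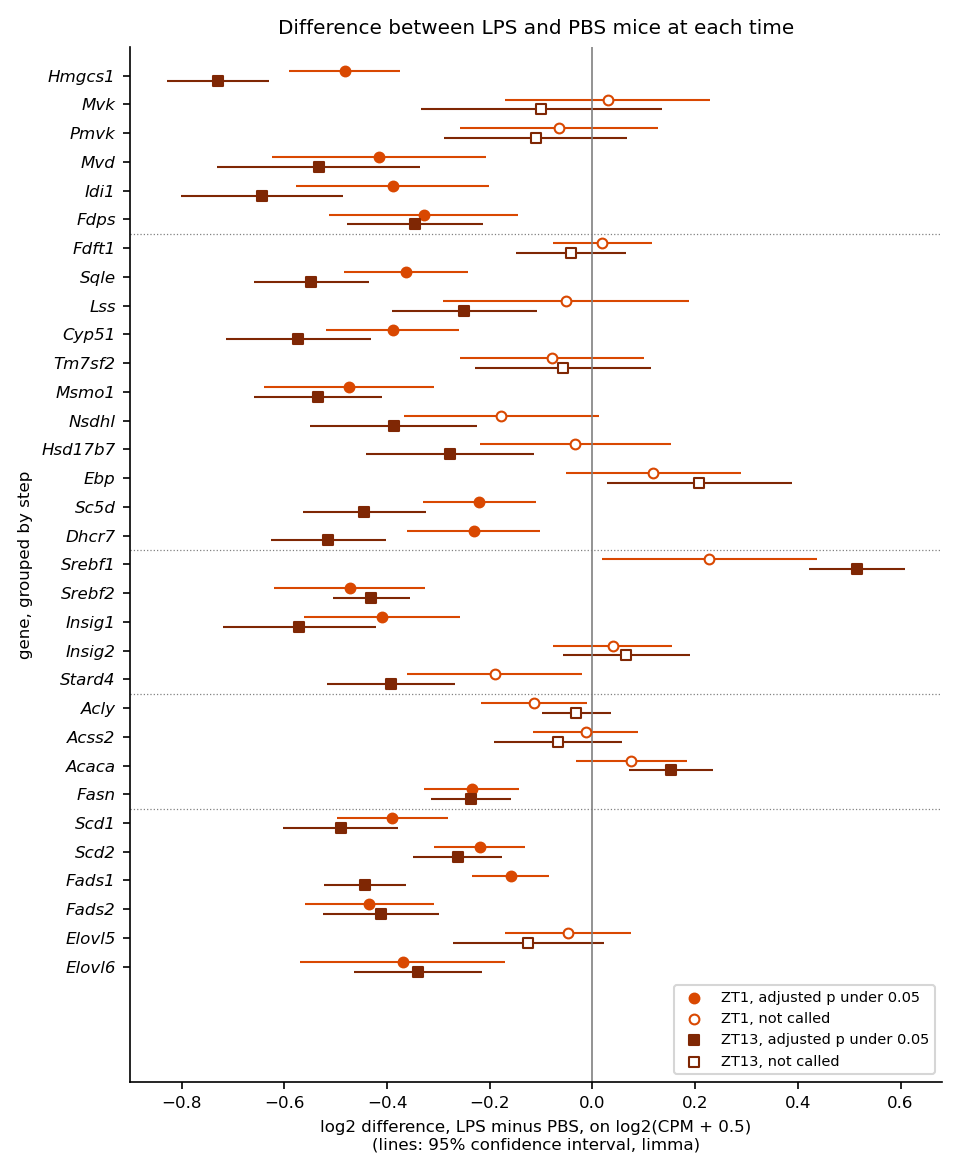
Log2 differences, LPS minus PBS, for the 32 genes at ZT1 (circles) and ZT13 (squares), with 95% confidence intervals from limma. Filled symbols were called at an adjusted p under 0.05, and the falls reach −0.73 for Hmgcs1 at ZT13 while Srebf1 reaches 0.52.

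Among the mevalonate steps, 4 of 6 genes fell at each time (Hmgcs1, Mvd, Idi1 and Fdps) and 2 were not called. Hmgcs1 encodes HMG-CoA synthase, which makes the precursor of mevalonate. It was at 168, 155 and 162 CPM in the ZT1 PBS mice and at 120, 106, 120, 114 and 118 CPM in the ZT1 LPS mice. At ZT13 it was at 176, 168 and 181 CPM with PBS and at 110, 105, 109, 106 and 96.5 CPM with LPS. All 10 LPS mice lay below all 6 PBS mice. Its log2 difference was −0.48 (SE 0.05, adjusted p = 7.9e-05 by limma) at ZT1 and −0.73 (SE 0.05, adjusted p = 4.8e-08) at ZT13. The exact permutation test gave p = 0.0357 at each time, the smallest that 5 mice against 3 allow, and gave the same value for every gene whose groups did not overlap. In the annotation 557 exon bases of Hmgcs1 (12.1%) lie opposite the antisense gene Gm48342, whose own level was 2.51 to 2.87 CPM in PBS mice and 0.99 to 2.10 CPM in LPS mice, and whether counting used strand is not given in the sources used here.

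Mvd encodes mevalonate diphosphate decarboxylase, which makes isopentenyl pyrophosphate. At ZT1 it was at 12.4, 11.6 and 12.5 CPM with PBS and at 9.42, 8.06, 9.27, 8.05 and 10.3 CPM with LPS. At ZT13 the values were 13.4, 12.95 and 16.4 CPM with PBS and 10.5, 8.85, 9.56, 9.21 and 10.1 CPM with LPS. The groups did not overlap at either time, and the log2 difference was −0.42 (SE 0.10) at ZT1 and −0.53 (SE 0.09) at ZT13. Idi1, whose product isomerizes isopentenyl pyrophosphate, was at 18.1, 16.2 and 18.9 CPM in ZT1 PBS mice and at 11.6, 13.3, 13.5, 14.5 and 14.2 CPM in ZT1 LPS mice. In the ZT13 mice it was at 20.2, 20.3 and 19.4 CPM with PBS and at 13.1, 12.5, 12.98, 13.5 and 11.1 CPM with LPS, so that the highest LPS mouse was well under the lowest PBS mouse. The log2 difference of Idi1 was −0.39 (SE 0.09) at ZT1 and −0.64 (SE 0.07) at ZT13. Fdps, which makes farnesyl pyrophosphate, the branch point to sterols, fell by 20.4% at ZT1 and fell by 21.3% at ZT13. The 2 kinases of mevalonate, Mvk and Pmvk, were not called at either time. Their log2 differences were 0.03 and −0.07 at ZT1 and −0.10 and −0.11 at ZT13, and the 95% interval of Mvk at ZT13 was −0.33 to 0.13, which still holds a fall as large as that of Lss at ZT13.

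Of the 11 genes of the squalene and sterol steps, 5 fell at ZT1 (Sqle, Cyp51, Msmo1, Sc5d and Dhcr7) and 8 fell at ZT13, when Lss, Nsdhl and Hsd17b7 joined them. None rose at either time. Sqle, the squalene epoxidase, was at 43.5, 43.9 and 45.6 CPM in ZT1 PBS mice and at 36.6, 33.1, 35.4, 32.1 and 34.8 CPM in ZT1 LPS mice. At ZT13 its values were 47.4, 45.8 and 52.5 CPM with PBS and 33.8, 34.0, 32.7, 32.7 and 31.97 CPM with LPS. The LPS mice at ZT13 were tightly grouped and all below the PBS mice, and the log2 difference was −0.36 (SE 0.06) at ZT1 and −0.55 (SE 0.05) at ZT13. Cyp51 encodes the lanosterol 14-alpha demethylase. It was at 41.4, 40.3 and 41.8 CPM in ZT1 PBS mice and at 29.8, 29.9, 30.3, 32.5 and 34.3 CPM in ZT1 LPS mice, and at ZT13 it was at 42.0, 39.0 and 47.5 CPM with PBS and at 28.1, 27.0, 30.0, 30.2 and 27.7 CPM with LPS. Its groups were apart at both times, by a log2 difference of −0.39 (SE 0.06) at ZT1 and −0.57 (SE 0.07) at ZT13.

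Msmo1 was at 31.5, 33.9 and 32.1 CPM in ZT1 PBS mice and at 23.6, 20.3, 23.5, 26.2 and 23.1 CPM in ZT1 LPS mice. At ZT13 it was at 39.2, 35.3 and 36.9 CPM with PBS and at 27.0, 25.3, 26.5, 25.1 and 23.7 CPM with LPS. No LPS mouse reached the lowest PBS mouse, and the log2 difference was −0.47 (SE 0.08) at ZT1 and −0.53 (SE 0.06) at ZT13. The late enzymes Sc5d, the lathosterol oxidase, and Dhcr7, the 7-dehydrocholesterol reductase, fell by 14.2% and 14.8% at ZT1 and by 26.5% and 30.0% at ZT13. Lss, which cyclizes squalene epoxide to lanosterol, had a log2 difference of −0.05 at ZT1 and fell by 0.25 on the log2 scale at ZT13. Nsdhl and Hsd17b7, which act with Msmo1 in removing methyl groups at C4, had log2 differences of −0.18 and −0.03 at ZT1 and fell by 0.39 and 0.28 on the log2 scale at ZT13.

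Fdft1, Tm7sf2 and Ebp were not called at either time. Fdft1 encodes squalene synthase, Tm7sf2 a sterol C14 reductase and Ebp a sterol isomerase. The log2 differences of Fdft1 were 0.02 (95% interval −0.08 to 0.12) at ZT1 and −0.04 (−0.15 to 0.07) at ZT13. Of the exon bases of Fdft1, 774 (18.3%) lie opposite Ctsb, a lysosomal protease gene with mean values of 323 CPM in ZT1 PBS, 414 CPM in ZT1 LPS, 328 CPM in ZT13 PBS and 444 CPM in ZT13 LPS mice. Without strand, reads there could not be assigned to either gene, and their part in the value of Fdft1 was not tested. Ebp differed upward from PBS, by 0.12 at ZT1 and 0.21 at ZT13 (adjusted p = 0.08 by limma), and at ZT13 all 5 LPS mice lay above all 3 PBS mice. Exons of Fdps and Tm7sf2 share 26.7% and 12.1% of their bases with same-strand genes, Gm43738 at 0 CPM in every sample and Vps51 at a mean of 59.5 to 62.4 CPM in the 4 groups.

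The regulators moved in both directions. Srebf2 was at 325, 319 and 317 CPM in ZT1 PBS mice and at 212, 205, 246, 243 and 252 CPM in ZT1 LPS mice. In the ZT13 mice it was at 299, 290 and 313 CPM with PBS and at 216, 231, 225, 223 and 220 CPM with LPS. All 10 LPS mice were below all 6 PBS mice. The log2 difference was −0.47 (SE 0.07, adjusted p = 0.00071 by limma) at ZT1 and −0.43 (SE 0.03, adjusted p = 5.9e-07) at ZT13. Srebf1, whose product drives mainly fatty acid synthesis, went the other way. It was at 63.9, 67.5 and 58.6 CPM in ZT1 PBS mice and at 88.1, 62.7, 71.7, 80.9 and 69.7 CPM in ZT1 LPS mice, where the groups overlapped through LPS mouse 2. At ZT13 it was at 57.3, 57.5 and 61.3 CPM with PBS and at 88.6, 80.1, 85.6, 83.1 and 83.5 CPM with LPS, with every LPS mouse above every PBS mouse. Its log2 difference was 0.23 (SE 0.10, adjusted p = 0.13 by limma) at ZT1, not called, and 0.52 (SE 0.04, adjusted p = 8.3e-07) at ZT13, a rise of 43.0%. Without ZT1 LPS mouse 2 the ZT1 difference was 0.29 and was called (adjusted p = 0.031 by limma). The table gives 1 value a gene, so the Srebf1 transcripts for SREBP-1a and SREBP-1c were not separated.

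Insig1 and Insig2 encode the endoplasmic reticulum proteins that hold back SREBP processing, and Insig1 is itself a classical SREBP target. Insig1 was at 59.6, 55.4 and 53.3 CPM in ZT1 PBS mice and at 44.6, 41.3, 43.6, 44.5 and 36.8 CPM in ZT1 LPS mice. In the ZT13 mice it was at 61.9, 64.5 and 65.9 CPM with PBS and at 45.5, 43.7, 48.6, 38.8 and 39.0 CPM with LPS. The groups were apart at both times, by −0.41 (SE 0.07) at ZT1 and −0.57 (SE 0.07) at ZT13 on the log2 scale. Insig2 was at 23.9, 25.2 and 24.4 CPM in ZT1 PBS mice and at 25.9, 24.6, 24.8, 24.7 and 25.8 CPM in ZT1 LPS mice. At ZT13 it was at 23.0, 23.0 and 24.3 CPM with PBS and at 25.8, 22.9, 23.8, 24.6 and 25.7 CPM with LPS. The Insig2 groups overlapped at both times and the log2 differences were 0.04 (95% interval −0.08 to 0.16) and 0.07 (−0.06 to 0.19). Stard4, a soluble sterol carrier, had a log2 difference of −0.19 (adjusted p = 0.12 by limma) at ZT1 and fell by 0.39 at ZT13.

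**Figure D3:**
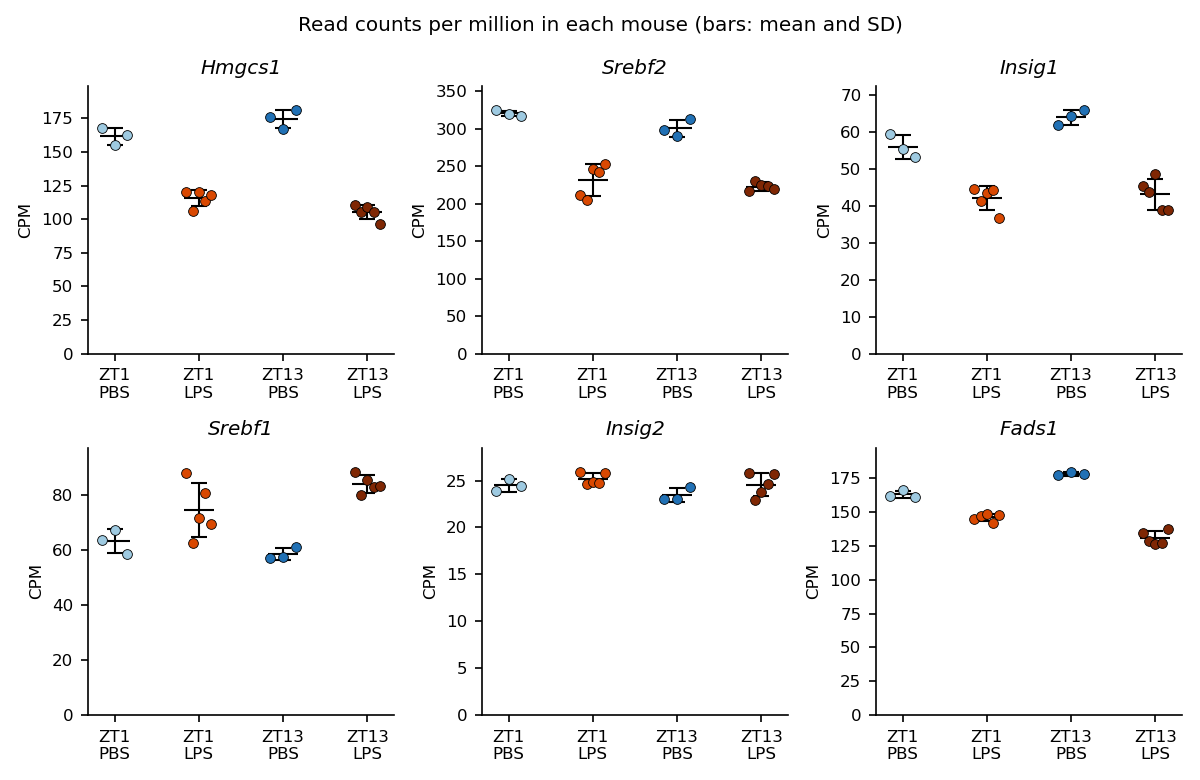
CPM of 6 genes in every mouse of the 4 groups, with the mean and SD (bars) and axes that start at zero. Hmgcs1, Srebf2, Insig1 and Fads1 are lower in every LPS mouse than in every PBS mouse of the same time, Srebf1 is higher in every LPS mouse at ZT13, and Insig2 overlaps between groups.

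Of the 4 genes of fatty acid synthesis, 1 fell at ZT1, and 1 fell and 1 rose at ZT13. Fasn, the fatty acid synthase, fell by 15.03% at ZT1 and fell by 15.1% at ZT13. Acaca, the acetyl-CoA carboxylase that feeds it, was not called at ZT1 (log2 difference 0.08) and rose by 11.2% at ZT13 (0.15, SE 0.04, adjusted p = 0.0077 by limma). Acly and Acss2, which supply acetyl-CoA from citrate and from acetate, were called at neither time. Their log2 differences were −0.11 and −0.01 at ZT1 and −0.03 and −0.07 at ZT13, although every LPS mouse was below every PBS mouse for Acly at ZT1.

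The desaturases and elongases moved with the sterol genes, with 5 of 6 falling at each time and Elovl5 not called. Scd1 and Scd2, which put the first double bond into saturated fatty acids, fell by 23.7% and 14.1% at ZT1 and by 28.8% and 16.6% at ZT13. Elovl6, which extends palmitate, fell by 22.6% at ZT1 and fell by 20.99% at ZT13. Fads1 and Fads2, neighbours on chromosome 19, encode the delta-5 and delta-6 desaturases of polyunsaturated fatty acids. Fads2 was at 119, 124 and 122 CPM in ZT1 PBS mice and at 93.4, 80.0, 88.0, 95.2 and 94.1 CPM in ZT1 LPS mice. In the ZT13 mice it was at 122, 117 and 125 CPM with PBS and at 89.6, 87.6, 85.0, 91.0 and 102 CPM with LPS. The Fads2 groups did not overlap, and the log2 difference was nearly the same at the 2 times, −0.43 (SE 0.06) and −0.41 (SE 0.05).

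Fads1 was the only one of the 32 genes called for a response to LPS that differed between the times. It was at 162, 166 and 161 CPM in ZT1 PBS mice and at 145, 147, 148, 142 and 148 CPM in ZT1 LPS mice. At ZT13 it was at 177, 180 and 178 CPM with PBS and at 135, 129, 127, 127 and 138 CPM with LPS. PBS mice were thus higher and LPS mice lower at ZT13 than at ZT1, with no overlap in either case. The fall was 0.16 (SE 0.03, adjusted p = 0.0088 by limma) at ZT1 and 0.44 (SE 0.04, adjusted p = 7.8e-07) at ZT13 on the log2 scale. The interaction of time and treatment, fitted on all 16 mice, was −0.28 (SE 0.05, adjusted p = 0.013 by limma), where 0.0371% of all genes (7 genes) had a negative interaction past the threshold, a count that was 3 (without ZT13 PBS mouse 2 or ZT1 PBS mouse 3) to 14 (without ZT1 LPS mouse 1) when each mouse was left out in turn. This call was lost without ZT1 PBS mouse 1 (−0.28, adjusted p = 0.053 by limma), without ZT1 PBS mouse 3 (−0.28, adjusted p = 0.063) and without ZT13 PBS mouse 2 (−0.28, adjusted p = 0.069), and over all alternatives its adjusted p was 0.0030 to 0.094.

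For the other 31 genes the interaction was not called. The estimate was negative in 23 of the 32 genes and in 15 of the 17 sterol enzymes. Of all genes tested, 54.0% had a positive estimate. A negative estimate means that the LPS difference was lower at ZT13 than at ZT1, whether or not both were falls. It equals the time difference in LPS mice minus that in PBS mice. These counts thus share their PBS mice with the PBS comparison below and are not a separate result. At an unadjusted p under 0.05 there were 9 of the 32 genes (28.1%), against 9.25% of all genes. Among them were Dhcr7 at −0.28 (95% interval −0.43 to −0.13), Hmgcs1 at −0.25 (−0.39 to −0.10), Sc5d at −0.22 (−0.38 to −0.07) and Srebf1 at 0.29 (0.05 to 0.52). Fasn, with an interval of −0.12 to 0.12, Fdps (−0.02) and Fads2 (0.02) had estimates near zero.

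Comparison of ZT13 with ZT1 in PBS mice gave the baseline difference between times of day. None of the 32 genes was called by limma (smallest adjusted p 0.11), and 0.520% of all genes (98 genes) were called, a count that was 12 to 87 when each mouse was left out in turn (12 without ZT1 PBS mouse 2). At an unadjusted p under 0.05 there were 12 of the 32 genes (37.5%), against 13.5% of all genes. The exact permutation test cannot go below 0.1 for 3 mice against 3. The log2 difference was positive in 24 of the 32 genes and in 16 of the 17 sterol enzymes, against 49.8% of all genes, with Ebp as the exception among the enzymes. Nsdhl had the largest difference, 0.27 (95% interval 0.06 to 0.47), followed by Lss at 0.24 and by Mvd and Dhcr7 at 0.21. Regulators differed in sign, with Insig1 at 0.19 and Srebf2 at −0.09.

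In LPS mice, ZT13 and ZT1 did not differ by limma for any of the 32 genes either (smallest adjusted p 0.10, Fads1), and 0.0212% of all genes (4 genes) were called. At an unadjusted p under 0.05 by limma there were 7 of the 32 genes (21.9%), against 10.6% of all genes. By the exact permutation test 6 of the 32 were under 0.05. That test was run on the 32 genes only, so its share among all genes is not known. The count over all genes rested on single mice and on the fit, as it was 345 without ZT1 LPS mouse 1, 20 without ZT1 LPS mouse 2, 0 to 5 without any other mouse, 122 with a single fit of all samples and 225 with sample quality weights. Fads1 had a log2 difference of −0.16 (exact permutation p = 0.0079, the smallest that 5 mice against 5 allow), and without ZT1 LPS mouse 1 it was called (adjusted p = 0.044 by limma). Hmgcs1 differed by −0.13, Cyp51 by −0.13 and Sc5d by −0.11, while Srebf1 differed by 0.18.

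**Figure D4:**
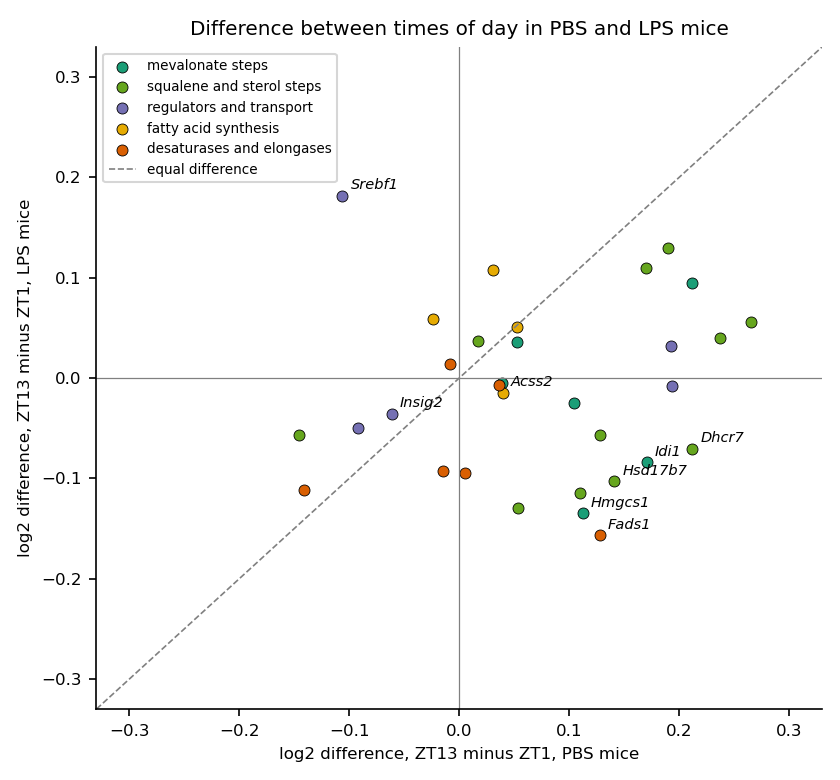
Log2 difference between ZT13 and ZT1 in PBS mice (horizontal) and in LPS mice (vertical) for the 32 genes, coloured by step, with a dashed line of equal difference. Most sterol enzymes lie right of zero and below the line, as do Fads1 (0.13 and −0.16) and Hmgcs1 (0.11 and −0.13), while Srebf1 lies above it.

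Neighbouring pathways were examined with lists that hold none of the 32 genes. Of all genes tested, 11.1% rose and 5.15% fell at ZT1 and 19.2% rose and 9.40% fell at ZT13, with median log2 differences of 0.04 and 0.05, and the counts of each list stand against these shares. Of 8 genes for the processing and degradation of SREBPs and their partners, 2 rose at ZT1, among them Erlin2 by 0.21 on the log2 scale, and 3 rose at ZT13, among them Ube2g2 by 0.22 and Mbtps1 by 0.17, with none falling. Of 9 genes of the liver X receptor (LXR) response and sterol efflux, 2 rose at ZT1, Abca1 by 0.68 (SE 0.09) and the receptor Nr1h3 by 0.51 (SE 0.15). At ZT13, 5 rose, including Nr1h3 by 1.08 and the cholesterol efflux pump Abca1 by 0.84, and 1 fell, the phospholipid transfer protein Pltp, by 0.55. Of 9 genes of sterol turnover and handling, 4 rose at ZT1 and 5 at ZT13. Ch25h, which makes 25-hydroxycholesterol, a sterol that restrains SREBP processing, went from a mean of 0.565 to 6.27 CPM at ZT1 and its log2 difference was 2.69 (SE 0.19) at ZT1 and 2.96 (SE 0.19) at ZT13. Cyp7b1, Npc2 and Lipa also rose at both times.

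The isoprenoid branch list of 11 genes also holds the acetoacetyl-CoA thiolases Acat1 and Acat2, which act before Hmgcs1 and not in the branch. Of the 11, 0 were called at ZT1 and 1 at ZT13, the thiolase Acat2, which fell by 0.19. Of 21 other genes of fatty acid supply, elongation and activation, 2 rose (Hacd2 and Elovl1) and 1 fell (Acsl6) at ZT1, and 4 rose and 5 fell at ZT13, with Acacb falling most, by 0.60. The share of this list that rose, 9.52% and 19.0%, was near that of all genes tested, and so was the share that fell at ZT1, 4.76%, while 23.8% fell at ZT13. Of 17 genes of fatty acid oxidation and PPAR targets, 7 rose at ZT1 and 13 at ZT13 and none fell. Angptl4, Ucp2 and Plin2 led both, at log2 differences of 2.31, 2.20 and 1.45 at ZT1 and of 2.27, 1.81 and 2.20 at ZT13. The median log2 differences at ZT1 and ZT13 were 0.09 and 0.01 for SREBP processing, 0.21 and 0.18 for LXR and efflux, 0.17 and 0.19 for sterol turnover, 0.07 and 0.01 for the isoprenoid branch, −0.02 and −0.05 for fatty acid supply, and 0.21 and 0.39 for fatty acid oxidation. Between the times of day, Ucp2 in PBS mice (0.67) was the only called gene of these 6 lists, and none was called for the interaction.

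**Figure D5:**
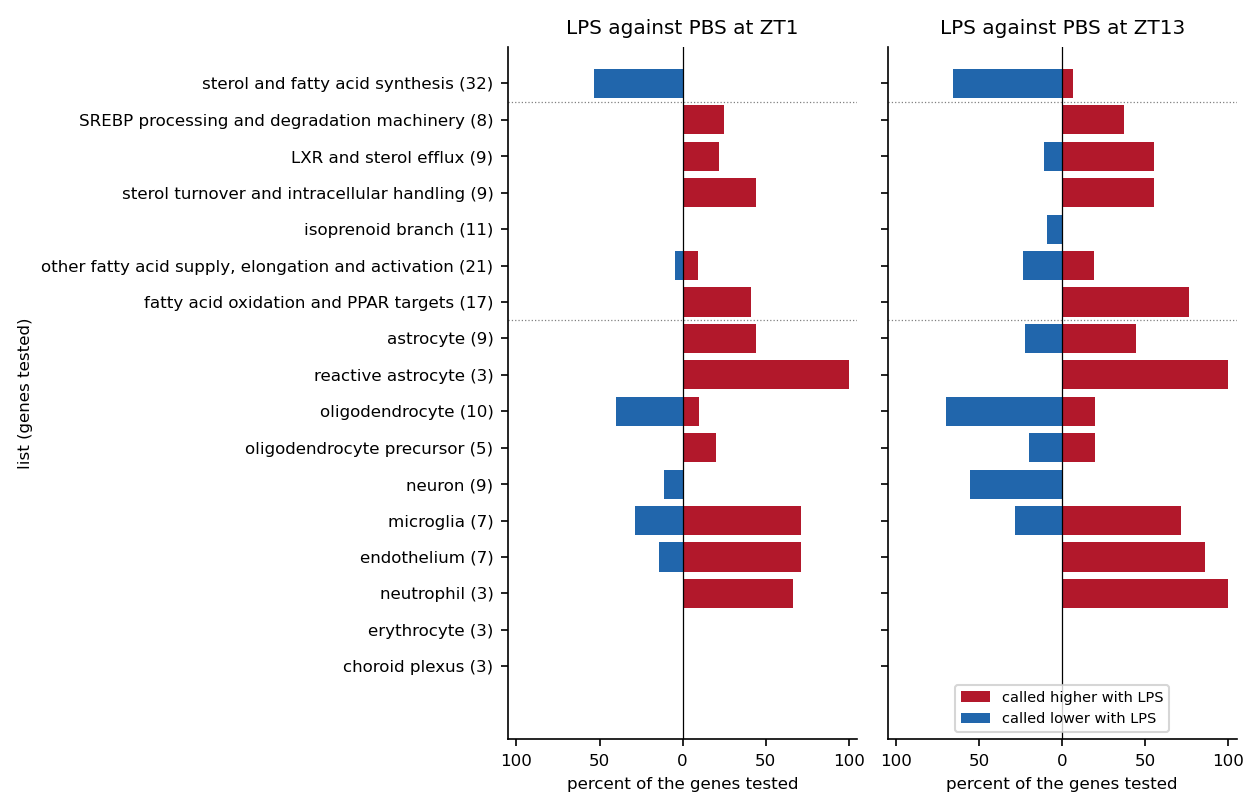
Percent of the genes tested in each list that rose (red, right) or fell (blue, left) with LPS at ZT1 and ZT13, with the number tested in brackets and dotted lines setting apart the 32 synthesis genes, the neighbouring lists and the cell type markers. The synthesis genes are mostly blue (17 of 32 and 21 of 32 falling), while fatty acid oxidation is red only (7 of 17 and 13 of 17).

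Cell type markers moved with LPS as well. Neuron markers, the defining transcripts of cortex, summed to 5742 to 5918 CPM in ZT1 PBS and 5329 to 5686 in ZT1 LPS mice, with 1 of 9 falling (Tubb3), and to 5855 to 6140 and 5279 to 5537 CPM at ZT13, with 5 of 9 falling. Oligodendrocyte markers, of a cell type rich in sterol synthesis, summed to 1439 to 1670 CPM in ZT1 PBS and 1311 to 1632 in ZT1 LPS mice, with 4 of 10 falling and 1 rising. At ZT13 the sums were 1693 to 1856 and 1382 to 1532 CPM, with 7 falling and 2 rising. Ugt8a, which makes galactosylceramide, a myelin lipid, fell by 0.63 at ZT1 and by 0.60 at ZT13, while Mobp, which encodes a myelin protein, rose by 0.30 and 0.18. Astrocyte markers summed to 6360 to 6608 CPM in ZT1 PBS, 6294 to 6744 in ZT1 LPS, 6468 to 6989 in ZT13 PBS and 6183 to 6924 in ZT13 LPS mice, with 4 of 9 rising at each time and 2 falling at ZT13. Thus the sums overlapped between LPS and PBS for astrocytes at both times and for oligodendrocytes at ZT1, when 17 synthesis genes fell, and did not overlap for neurons at either time or for oligodendrocytes at ZT13. Their part in the falls of the synthesis genes was not tested.

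Markers of other cells moved in both directions. The 3 reactive astrocyte markers all rose at both times (142 to 156 CPM summed in ZT1 PBS, 798 to 1437 in ZT1 LPS, 150 to 151 in ZT13 PBS, 1233 to 1660 in ZT13 LPS). Of 7 microglia markers, 5 rose and 2 fell (Siglech and P2ry12) at each time (119 to 131 and 148 to 257 CPM at ZT1, 114 to 127 and 225 to 247 at ZT13). Of 7 endothelial markers, 5 rose and 1 fell at ZT1 and 6 rose at ZT13 (160 to 162 and 216 to 272 CPM, then 115 to 137 and 263 to 282), 4 were called higher for the interaction, and 2 (Cldn5 and Flt1) were lower at ZT13 than at ZT1 in PBS mice. Oligodendrocyte precursor markers gave 1 of 5 rising at ZT1 and 1 rising and 1 falling at ZT13, with sums of 229 to 273 CPM across the 4 groups. Of 6 neutrophil markers, 3 were tested, 2 rising at ZT1 and 3 at ZT13, and the 6 summed to 0.455 to 1.43 CPM in PBS and 7.56 to 67.7 CPM in LPS mice. None of 3 erythrocyte or 3 choroid plexus markers was called at either time by limma, and their sums ran from 5.35 to 25.3 CPM and from 6.79 to 73.5 CPM over single mice. These values stand beside the falls of the 32 genes, and their part was likewise not tested.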

How the data were processed

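Values were deposited by the authors as CPM, the reads of a gene per 1000000 reads on all genes, in 1 table. Per the labels, 1 µg of total RNA was used after ribosomal depletion (KAPA RiboErase). The submitters' processing notes name bcl2fastq, DRAGEN 4.0.3-8 and GRCm38. The counting tool, its strand setting and the annotation are not given in the sources used here. No column held comparisons made by the authors, and 0 columns of other samples were found.

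Of 55774 lines, 287 repeated a gene with identical values and were dropped, which left 55487. All columns were already scaled to the library total. Low values were multiples of the CPM of 1 read, which gave the depth, 20251840 to 29112758 reads, but only 80.7% to 82.4% of values up to 20 reads were whole within 0.01 read, so count tests were not run. Arithmetic on depth covers counting error only. Genes at 1 CPM or more in 3 or more of 16 samples were tested (18859), as log2(CPM + 0.5), with limma 3.58.1 (R 4.3.3), an intensity trend and Benjamini-Hochberg adjustment over all of them at 0.05. Each pair of groups was fitted alone and the interaction on 4 group means. For the 32 genes, group means of log2 values were in addition set against all regroupings (exact permutation, two-sided). The fits were tested on simulated data. Exon overlap and lengths came from GENCODE M21 (GRCm38). Python 3.11.15, pandas 2.3.3, scipy 1.17.1 and matplotlib 3.10.9 were used.

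The 32 genes, the neighbouring lists and the cell type markers were chosen with earlier results of these data known, so no list was tested as a set. Values in every mouse are given for the 5 called genes with the largest absolute log2 difference in each comparison, genes called for the interaction, and Srebf1, Srebf2, Insig1, Insig2 and Hmgcs1. Up to 3 called genes a neighbouring list and comparison are named by the same measure, and Cyp7b1, Npc2, Lipa and single markers were named after their values were seen. Some genes of these lists are counted with their list but not reported here by name. Alternatives were pseudocounts of 0.1 and 1, no filter, a filter at 5 CPM, median-of-ratios scaling, quantile normalization, a single fit, sample quality weights, no trend, a replicate block, the treatment field in place of titles, and the omission of single mice.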

Additional observations from a re-analysis of the deposited data

Results flagged for a closer look

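The response of Fads1 to LPS differed between the times of day by −0.28 on the log2 scale (SE 0.05, adjusted p = 0.013 by limma over all genes), and was the only such call among the 32 genes. In 3 of 64 pairs of gene and LPS group a single mouse lay farther from the rest than the critical value of Dixon's test allows, about the number that chance gives at 1 in 20. Hsd17b7 was at 11.9 CPM in ZT1 LPS mouse 5, where the other 4 were at 14.4 to 15.2 CPM. Acaca was at 117 CPM in the same mouse, where the others were at 129 to 134 CPM. Stard4 was at 17.3 CPM in ZT13 LPS mouse 1, where the next highest was at 16.2 CPM and the lowest at 15.9 CPM. Neither Hsd17b7 nor Acaca was called at ZT1, and leaving out ZT1 LPS mouse 5 did not give either a call. Stard4 fell at ZT13 with and without ZT13 LPS mouse 1.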

How the results depend on the processing

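No called difference changed sign under the alternatives that kept the titles. At ZT1 the number of the 32 genes called was 14 to 20 over the settings that kept the titles and all mice, and 12 to 18 when each mouse was left out in turn. At ZT13 it was 21 to 24, and 22 to 24 when each mouse was left out. With treatment from the treatment field it was 0 at both times, as was the count over all genes tested. The median log2 difference of the 32 genes turned from −0.21 to 0.09 at ZT1 and from −0.34 to 0.21 at ZT13. The interaction call of Fads1 alone (1 gene) became 2 genes with sample quality weights, which added Dhcr7 at −0.30, and 0 with no intensity trend, and ranged from 0 to 1 when each mouse was left out. Between ZT13 and ZT1 in LPS mice, 0 genes became 1 (Fads1) with a single fit of all samples and with sample quality weights, and ranged from 0 to 1 when each mouse was left out. Of the values of single genes, 3037 kept their side of the threshold or stayed within 1 SE, 29 lost a call, 15 gained one and 23 moved further without a call, and the cause was not tested. Over all genes the count at ZT1 was 3061, 1605 with no filter, where 38565 genes shared the adjustment, and 1767 to 3758 when each mouse was left out. At ZT13 the count over all genes was 5401, 4332 to 5676 over the other fits, and 4329 to 5547 when each mouse was left out. For the interaction it was 30, 11 to 124 over the other fits, and 7 (without ZT13 PBS mouse 2) to 104 (without ZT1 LPS mouse 1) when each mouse was left out. Between ZT13 and ZT1 it was 98 in PBS mice (3 to 199 over the other fits, 12 to 87 with each mouse left out) and 4 in LPS mice (0 to 225, and 0 to 345).

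Residuals of samples with the same replicate number correlated at −0.20 to 0.33, and the main fits did not pair them. Samples with different numbers were not compared, so these values cannot tell whether the numbers pair the mice. With the replicate block 14 genes were called at ZT1 and 21 at ZT13, 0 between the times in PBS and 0 in LPS mice, and 1 for the interaction.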
